A study of Mus musculus with 8 samples.

Results

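Genomic imprinting leaves a gene active from the copy inherited from the father or from the copy inherited from the mother and silent from the other. In most cases the choice is set by DNA methylation laid down in sperm or oocyte at control regions. Genes under 1 control region lie together in a domain, often with a non-coding RNA that silences its neighbours. Many imprinted genes act on growth, placenta, neurons and mesenchyme, and several are known to be regulated together during development.

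Described here are 37 mouse imprinted genes that lie outside the Dlk1-Dio3 domain and outside distal chromosome 7, taken by name from the RNA-seq table, which lists 32567 genes. They belong to 19 domains, 10 of which hold at least 2 of them. By general knowledge of mouse tissues, 21 are expressed from the paternal allele and 12 from the maternal allele, and in 4 (Grb10, Gnas, Ddc and Inpp5f) the allele depends on the isoform or the tissue. The reads were counted per gene over both alleles, so the class names are background and no allele was measured. All 37 genes had reads in the table.

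Poly-A RNA and, separately, small RNA were sequenced from a wild-type mouse embryonic stem cell line (ESC) and from a line homozygous for Hdh ex4/5, an inactivating allele of Htt, the mouse orthologue of the Huntington's disease gene. Each line was taken as ESC and as RA-DIFF cells, which were grown as embryoid bodies for 8 days with 5 µM retinoic acid from day 4 and collected 2 h after plating. Each of the 4 conditions has 1 library per assay, so no difference below has a replicate check and no p-value is given. Whether the Htt-null line is 1 clone is not stated in the sources used here, and feeder cells were withdrawn from the ESC over 4 passages ahead of embryoid body formation.

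The RNA-seq libraries held between 63617410 and 110569127 counts, and 3 counts correspond to between 0.0271 and 0.0472 CPM, the count scaled by the total of its library. Htt, the targeted gene, was counted over its whole length and not over the exons that the allele targets, so its level is no direct check of the labels. It had 163.6 CPM in wild-type and 114.1 CPM in Htt-null ESC, a log2 ratio of -0.58, but 74.3 CPM in the wild-type-labelled RA-DIFF library and 96.3 CPM in the Htt-null-labelled RA-DIFF library, a log2 ratio of 0.43. The per-condition values that the study tabulates for RA-DIFF also lay nearest to the column of the other label, and in ESC to the column of the same label. The study reports most of its changed neuron genes as higher in Htt-null RA-DIFF cells, and lists more extracellular matrix genes lower than higher there. By label, most neuron markers were lower and the tested mesenchyme markers higher, as given below. The RA-DIFF libraries are therefore named by their label throughout, and every RA-DIFF genotype difference below takes the opposite sign if the labels were exchanged.

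Cell type markers differed between the RA-DIFF libraries. The 12 fibroblast and mesenchyme markers summed to 54.0 CPM in wild-type and 42.5 CPM in Htt-null ESC, and to 629 CPM in the wild-type-labelled RA-DIFF library and 2311 CPM in that labelled Htt-null. The 10 neuron markers summed to 283.5, 328.4, 2895 and 1289 CPM in the same order, the 6 neural progenitor markers to 41.2, 55.3, 2568 and 2453 CPM, and the 8 pluripotency markers to 4295, 4328, 268.5 and 221.5 CPM. Stmn2 alone made up 211.1 and 213.8 CPM of the neuron sums in wild-type and Htt-null ESC. Neural and mesenchymal genes were thus expressed in both RA-DIFF libraries. In such bulk samples fewer cells of a type and less RNA per cell cannot be told apart.

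Below, 4 values in a row always stand for wild-type ESC, Htt-null ESC, the wild-type-labelled RA-DIFF library and the Htt-null-labelled RA-DIFF library, in this order. A log2 ratio compares 2 libraries after trimmed-mean (TMM) scaling, and its interval is the 95% interval from counting error alone. A gene is called higher or lower where the log2 ratio is above 0.75 or below -0.75 and its log2 CPM averages above 0 over the 4 libraries. Of all genes, 14417 passed this expression limit, and of the 37 imprinted genes 34 did. Airn, Rasgrf1 and Calcr did not pass it.

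The 37 genes together took 0.255% and 0.227% of all counts in wild-type and Htt-null ESC, and 0.477% and 0.900% in the RA-DIFF libraries labelled wild type and Htt-null. Most of this increase lay in the paternally expressed genes. Their summed level was 1380.5, 1253.5, 3360 and 7649 CPM, against 884.6, 835.6, 731.4 and 805.9 CPM for the maternally expressed genes and 283.0, 177.7, 680.8 and 547.9 CPM for the 4 genes of varying allele. Mest, Peg3 and Peg10 alone supplied 11.0%, 10.9%, 34.2% and 58.3% of the imprinted counts. Without these 3 genes the paternally expressed genes summed to 1100.4, 1006.7, 1728 and 2401 CPM.

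**Figure D1:**
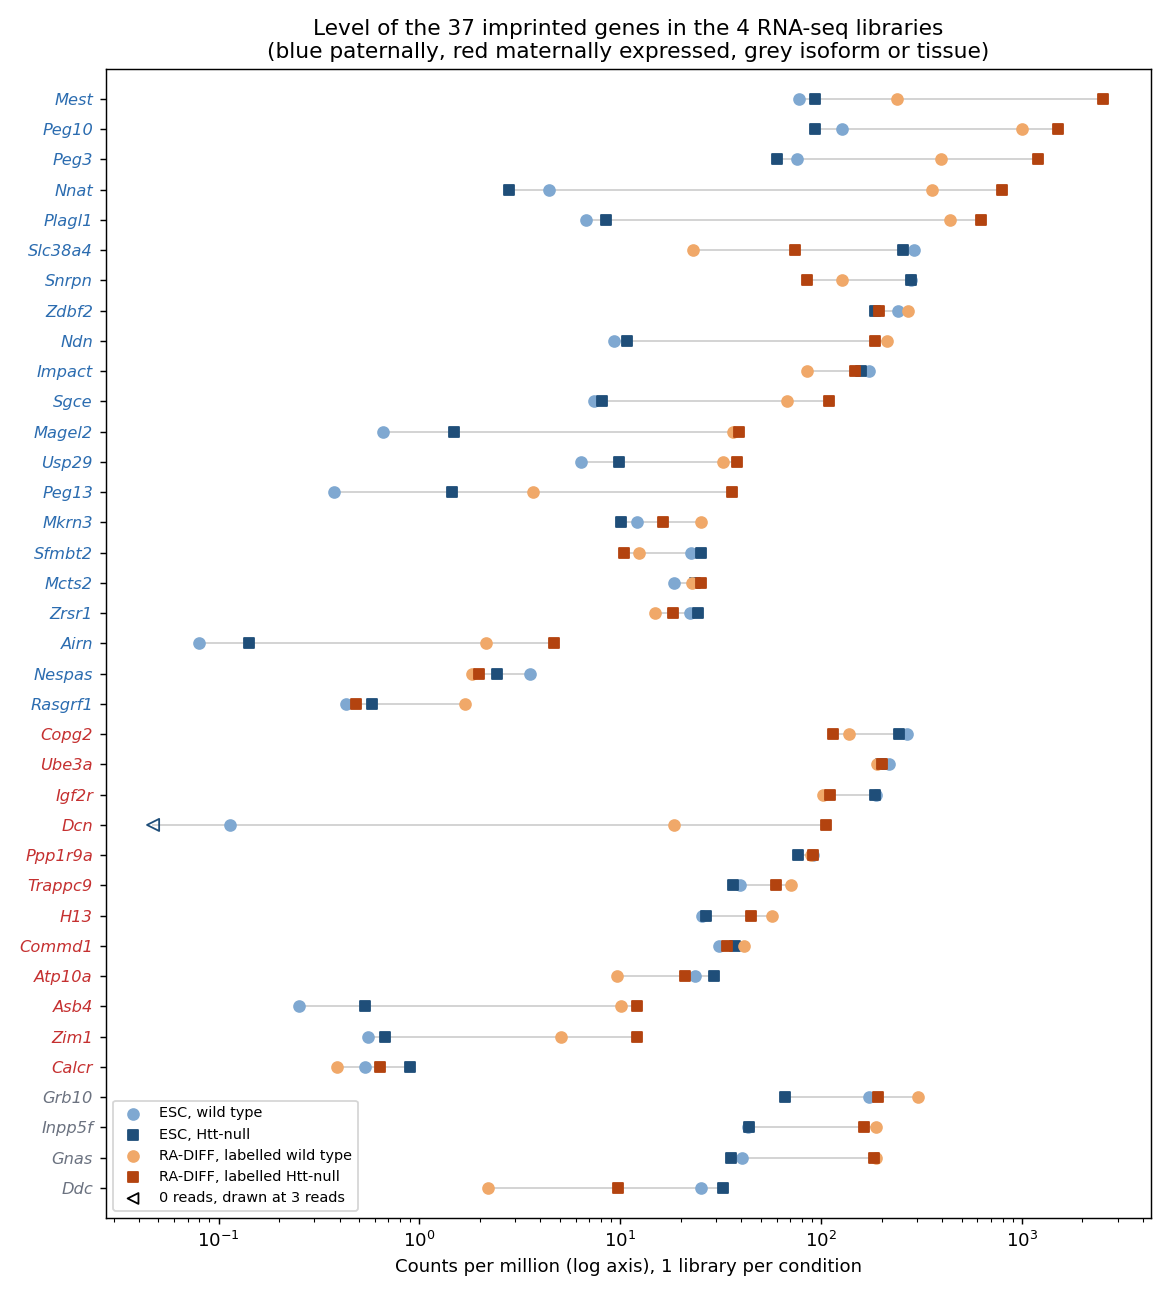
Level, in CPM, of each of the 37 imprinted genes on a log axis, with 1 point for each of the 4 RNA-seq libraries and the genes grouped by the expressed allele. Mest reaches 2531 CPM in the Htt-null-labelled RA-DIFF library, while Ube3a stays between 190.4 and 216.5 CPM in all 4 libraries.

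Per length of exonic sequence (RPKM, reads scaled by library size and per kilobase), Snrpn, which encodes a core protein of the spliceosome, was the most abundant of the 37 in ESC, at 129.8 RPKM in wild-type and 129.3 RPKM in Htt-null cells. Slc38a4, an amino acid transporter, followed with 68.4 and 59.9 RPKM and Copg2, a subunit of the coat of transport vesicles, with 52.5 and 47.6 RPKM. In the wild-type-labelled RA-DIFF library the order was led by Nnat at 194.1 RPKM and Peg10 at 149.5 RPKM, and in that labelled Htt-null by Mest at 641.7, Nnat at 434.4 and Peg10 at 227.4 RPKM. Among all genes with a known length, Mest stood at place 2918, 2429, 708 and 18 by RPKM and Nnat at place 9994, 11504, 113 and 32.

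The bases before the starts of 4 transcripts are shown: Mest for the largest genotype ratio in RA-DIFF, Nnat for its increase with differentiation, Grb10 for the ESC genotype difference with the most reads, and the start region that Peg3 and Usp29 share. They come from the RefSeq annotation of GRCm38.p6, run 5′ to 3′ along the strand of the gene and end at the base before the start, and capitals mark CpG dinucleotides, the sites that imprinting methylates. Mest lies at chr6:30737800-30738049 on the plus strand, Nnat at chr2:157559828-157560077 on the plus strand and Grb10 at chr11:12037421-12037670 on the minus strand. Peg3 and Usp29 start back to back, and the bases between their starts are chr7:6730420-6730582, given on the plus strand.
Mest: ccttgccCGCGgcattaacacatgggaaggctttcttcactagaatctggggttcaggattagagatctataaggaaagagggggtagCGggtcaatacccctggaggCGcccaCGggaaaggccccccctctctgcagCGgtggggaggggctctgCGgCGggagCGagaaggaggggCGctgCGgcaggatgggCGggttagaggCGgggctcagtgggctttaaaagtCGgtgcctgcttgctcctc
Nnat: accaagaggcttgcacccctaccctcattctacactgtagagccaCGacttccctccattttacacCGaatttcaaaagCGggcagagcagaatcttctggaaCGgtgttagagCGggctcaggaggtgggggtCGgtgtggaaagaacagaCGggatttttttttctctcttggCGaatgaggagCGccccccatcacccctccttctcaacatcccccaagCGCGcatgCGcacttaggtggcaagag
Grb10: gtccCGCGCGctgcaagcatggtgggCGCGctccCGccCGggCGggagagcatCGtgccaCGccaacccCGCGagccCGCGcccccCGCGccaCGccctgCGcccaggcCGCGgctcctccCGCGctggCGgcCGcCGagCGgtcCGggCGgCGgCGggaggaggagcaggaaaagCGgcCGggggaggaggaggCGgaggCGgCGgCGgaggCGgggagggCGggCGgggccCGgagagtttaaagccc
Peg3-Usp29: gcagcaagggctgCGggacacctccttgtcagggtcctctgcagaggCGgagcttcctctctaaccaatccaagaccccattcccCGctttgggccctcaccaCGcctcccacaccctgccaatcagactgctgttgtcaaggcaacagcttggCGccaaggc
These stretches hold 14 CpG in 250 bases for Mest, 12 for Nnat, 40 for Grb10, and 5 in the 163 bases between Peg3 and Usp29. The GC content is 62.4%, 54.8%, 81.2% and 62.0%.

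The zinc finger protein Zfp57 binds the methylated hexamer TGCCGC at imprint control regions. The Mest stretch holds this hexamer, read on either strand, at positions 9 and 184 from its first base, and the other 3 stretches do not hold these letters. Counted over windows from 250 bases before to 50 bases after each RefSeq start, 12 of 48 windows of 30 imprinted genes hold TGCCGC on either strand (25.0%), beside 11.6% of 32851 windows of all genes. The imprinted windows also hold more CpG, with a median of 15.5 against 7, and windows of 1 gene can overlap, so the share is given as a description. Mest counts with a pair of windows, from chr6:30737800-30738099 and chr6:30737803-30738102, that hold the same hexamers. The hexamer stands in 7 of 25 windows of paternally expressed genes, 4 of 14 of maternally expressed genes and 1 of 9 of the genes of varying allele. The genes with it are Mest, Nnat, Snrpn, Plagl1, Zdbf2, Mcts2, Zim1, Copg2, Calcr, Commd1 and Grb10. For Peg10, Sgce, Impact, Nespas, Peg13, Trappc9 and Dcn no window was used.

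Differentiation with retinoic acid was compared first, in each pair of libraries of 1 label. In the libraries labelled wild type 19 imprinted genes were called higher in RA-DIFF, where 32.5% of all tested genes were, and 9 lower, where 24.9% of all were. In the libraries labelled Htt-null 19 were called higher, beside 32.9% of all genes, and 5 lower, beside 23.5%. The 19 genes higher were identical in both pairs, 5 genes (Snrpn, Slc38a4, Sfmbt2, Copg2 and Ddc) were lower in both, and 0 were called in opposite directions. Of all 14417 tested genes 27.1% were higher in both pairs, 19.6% lower in both and 0.583% called in opposite directions, and the genes higher in both made up 83.5% and 82.4% of those higher in each pair. With the RA-DIFF labels exchanged the sets were no longer identical, with 16 higher and 7 lower in wild-type cells, where Grb10, Mkrn3 and Trappc9 were not called, and 19 higher and 8 lower in Htt-null cells. Among the 19 genes higher by label, Zim1, Asb4 and Dcn had at most 0.676 CPM in each ESC library, and Peg13 had 0.375 and 1.45 CPM. The expression limit averages over both stages, so these genes passed it through RA-DIFF and count in the calls and medians. The median log2 ratio over the 34 genes was 0.91 and 0.79, against 0.11 and 0.16 over all tested genes. It was 1.58 and 2.01 for 19 paternally expressed, 0.37 and 0.32 for 11 maternally expressed and 1.42 and 1.79 for the 4 genes of varying allele.

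Nnat, which encodes a small membrane protein of the neuronal endoplasmic reticulum, had the steepest increase among the paternally expressed genes. It had 389, 177, 39254 and 80192 reads, log2 ratios of 6.29 (6.14 to 6.43) and 8.23 (8.02 to 8.45). Plagl1, a zinc finger transcription factor that restrains growth of cultured cells and activates other imprinted genes, had 593, 541, 48199 and 62791 reads, log2 ratios of 5.98 (5.86 to 6.09) and 6.26 (6.14 to 6.39). Both genes were low in each ESC library and high in each RA-DIFF library.

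In the Prader-Willi and Angelman domain of chromosome 7 the genes did not move together. Magel2 and Ndn, MAGE family genes active in neurons, had 58, 94, 4003 and 3953 reads and 820, 688, 23457 and 18786 reads. Their log2 ratios were 5.74 and 4.80 for Magel2 and 4.47 and 4.18 for Ndn. Mkrn3, a RING finger gene known for its part in the timing of puberty, had 1063, 638, 2802 and 1646 reads, log2 ratios of 1.03 and 0.77. Snrpn, whose start lies at the control region of the same domain, was lower in RA-DIFF, with 24631, 17754, 13988 and 8599 reads and log2 ratios of -1.19 and -1.64. The maternally expressed Ube3a, a ubiquitin ligase that is imprinted in neurons, had 19039, 12584, 21052 and 20206 reads and log2 ratios of -0.22 and 0.09. Atp10a, a phospholipid flippase, had 2078, 1871, 1068 and 2122 reads, lower by the call in the libraries labelled wild type (-1.33) and at -0.41 in those labelled Htt-null. Peg12, a neighbour that was not among the 37 genes, had 250, 237, 8720 and 8367 reads, close to the pattern of Ndn and Magel2.

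In the Peg10 domain of proximal chromosome 6, Peg10, a gene derived from a retrotransposon that placenta formation needs, had 11133, 5950, 110198 and 153036 reads, log2 ratios of 2.94 and 4.09. Sgce, the epsilon sarcoglycan gene that starts next to it on the opposite strand, had 651, 513, 7491 and 10978 reads, log2 ratios of 3.15 and 3.83. The maternally expressed Asb4, a ubiquitin ligase adaptor, had 22, 34, 1113 and 1226 reads, log2 ratios of 5.29 and 4.58. Ppp1r9a, which encodes the actin-binding neurabin, differed by at most 0.32 in either pair, with 7963, 4904, 9849 and 9215 reads. Calcr, the calcitonin receptor gene, had between 43 and 64 reads in every library and was under the expression limit.

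The Peg3 domain was higher in RA-DIFF in all 3 of its genes here. Peg3, a zinc finger gene of brain, placenta and muscle, had 6679, 3853, 43900 and 121131 reads, log2 ratios of 2.35 and 4.38. Usp29, a gene of the ubiquitin protease family that starts beside it, had 561, 630, 3586 and 3842 reads, log2 ratios of 2.31 and 2.01. The maternally expressed Zim1, a zinc finger gene, had 49, 43, 563 and 1224 reads, log2 ratios of 3.15 and 4.24. For Peg3 and Zim1 the genotype ratio was larger in RA-DIFF than in ESC, as described with the genotype below.

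Mest, a gene of the alpha/beta hydrolase fold that marks mesoderm, had 6813, 5896, 26349 and 255493 reads, log2 ratios of 1.58 (1.54 to 1.62) and 4.84 (4.81 to 4.88). Peg13, a non-coding RNA within an intron of Trappc9, had 33, 92, 408 and 3620 reads, log2 ratios of 3.26 and 4.70. Dcn, an extracellular matrix proteoglycan of connective tissue that is imprinted in placenta, had 10, 0, 2036 and 10729 reads. Its log2 ratio was 7.30 in the libraries labelled wild type, and in those labelled Htt-null, with 0 reads in ESC, the lower end of its counting interval was 10.91. The 3 genes were lowest in ESC and highest in the Htt-null-labelled RA-DIFF library.

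Further genes were higher in RA-DIFF. Gnas, which encodes the stimulatory G protein subunit, had 3549, 2268, 20776 and 18596 reads, log2 ratios of 2.18 and 2.44. Inpp5f, an inositol phosphatase gene with a paternally expressed brain isoform, had 3821, 2793, 20785 and 16423 reads, log2 ratios of 2.07 and 1.96. Grb10, an adaptor that dampens insulin and growth factor signalling, had log2 ratios of 0.76 and 1.61. H13, a signal peptide peptidase gene, had 2240, 1708, 6289 and 4503 reads, log2 ratios of 1.12 and 0.80, and Trappc9, a trafficking complex subunit gene, had 3461, 2306, 7782 and 5984 reads, log2 ratios of 0.80 and 0.78. Grb10 and Trappc9 lay just past the limit in the libraries labelled wild type, and Mkrn3, H13 and Trappc9 in those labelled Htt-null.

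By the labels, genes lower in RA-DIFF were led by Slc38a4 and Ddc. With the RA-DIFF labels exchanged, Snrpn would have a lower ratio than Ddc in wild-type cells, from 280.1 to 85.2 CPM beside 25.3 to 9.76 CPM. Slc38a4 had 25621, 16243, 2556 and 7435 reads, log2 ratios of -3.70 and -1.72. Ddc, the decarboxylase that makes dopamine and serotonin, had 2225, 2063, 243 and 985 reads, log2 ratios of -3.56 and -1.66. Copg2 had 268.6, 243.7, 138.3 and 113.9 CPM and was lower by the call in both pairs, and Sfmbt2, a polycomb group gene of extraembryonic tissue, had 1986, 1601, 1366 and 1054 reads, log2 ratios of -0.91 and -1.20. A further 3 genes besides Atp10a were called lower in the libraries labelled wild type and not in those labelled Htt-null, 4 in all, as were 5.32% of all tested genes. Igf2r, the receptor that clears Igf2, had 16532, 11780, 11239 and 11134 reads (-0.93 and -0.68), and Impact, a regulator of the amino acid starvation response, had 15255, 10073, 9412 and 14829 reads (-1.07 and -0.04). Nespas, the antisense RNA of the Gnas domain, had 311, 155, 202 and 199 reads (-0.99 and -0.23). The difference between the pairs was not tested for any of them.

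Mcts2 and Zrsr1, retrogenes that sit in introns of H13 and Commd1, stayed within the limit, with 1621, 1495, 2524 and 2534 reads and 1950, 1552, 1641 and 1849 reads. Their parent genes Mcts1 and Zrsr2 also stayed within it, and because retrogene and parent are alike in sequence their reads may be shared between them. Commd1, a gene of copper handling, had 2726, 2366, 4542 and 3438 reads. Zdbf2, a zinc finger gene, had 21164, 11753, 29792 and 19536 reads, log2 ratios of 0.12 and 0.14. Airn, the non-coding RNA that silences the paternal Igf2r, had 7, 9, 238 and 471 reads, log2 ratios of 4.72 and 5.12, and was under the expression limit. Rasgrf1, an exchange factor of Ras in neurons, had 38, 37, 187 and 49 reads.

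**Figure D2:**
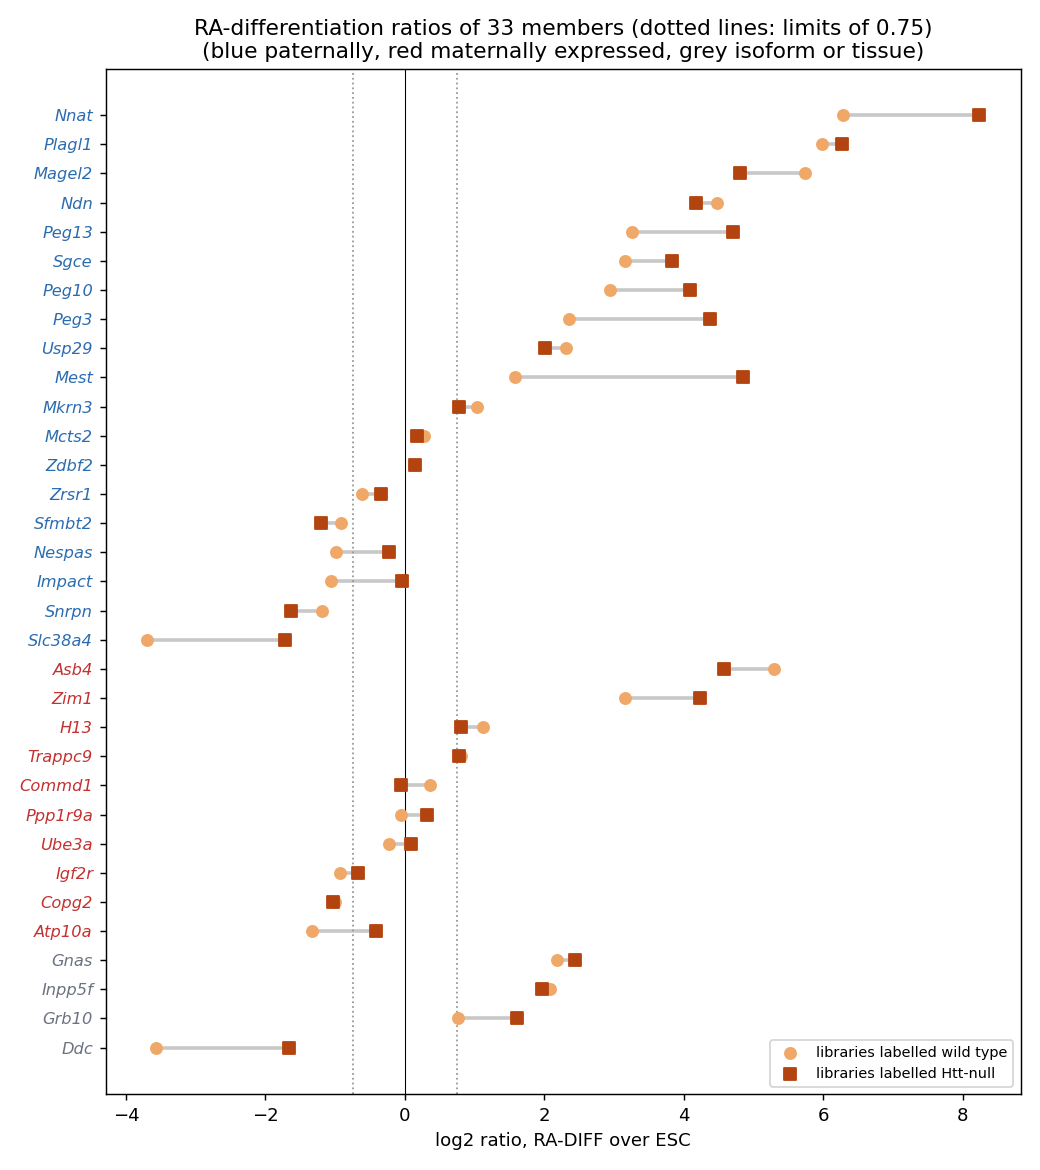
Log2 ratio of RA-DIFF over ESC for 33 imprinted genes past the expression limit, with circles for the libraries labelled wild type, squares for those labelled Htt-null and dotted lines at the limits of 0.75. Dcn is left out because Htt-null ESC had 0 reads. Nnat reaches 6.29 and 8.23, Slc38a4 lies at -3.70 and -1.72, and Mest lies at 1.58 and 4.84.

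The comparison of Htt-null with wild-type cells asks which genes respond to the loss of Htt at each stage. In ESC 3 imprinted genes were called higher in Htt-null cells, where 4.06% of all tested genes were, and 2 were called lower, where 2.74% of all were. The median over the 34 genes was -0.05, against -0.04 over all genes, with 16 genes above 0 and 18 below it. By class the medians were 0.07 for paternally expressed, -0.08 for maternally expressed and -0.14 for the genes of varying allele. Most of the 37 genes were thus close in level in the ESC lines.

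Grb10 had 173.9 CPM (95% Wilson interval of the counts 171.2 to 176.7) in wild-type and 65.7 CPM (63.8 to 67.8) in Htt-null ESC, a log2 ratio of -1.46 (-1.51 to -1.41). Its reads were 15289, 4182, 33467 and 19297. The 1152 tested genes of its chromosome 11 had a median of 0.21 in this comparison, the opposite direction, and the neighbouring Cobl had -0.09 and Ddc 0.30. Of all called imprinted genes in ESC, Grb10 had the most reads. Grb10 has several starts, and counts per gene do not tell them apart.

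The other genes called in ESC had few reads. Peg13 had 33 reads in wild-type and 92 in Htt-null ESC, a log2 ratio of 1.89 (1.30 to 2.51), Magel2 had 58 and 94, a log2 ratio of 1.11 (0.62 to 1.60), and Asb4 had 22 and 34, a log2 ratio of 1.04 (0.22 to 1.88). Dcn had 10 reads in wild-type and 0 in Htt-null ESC, a log2 ratio of -1.33 with 3 reads set for the 0, and the upper end of its counting interval was -0.75, at the limit. Dcn passed the expression limit through its RA-DIFF libraries alone. The 4 genes were at or below 1.48 CPM in ESC and at or above 3.69 CPM in RA-DIFF, and the expression limit averages over both. The interval of Asb4 reached below the limit of 0.75, as did that of Magel2. Nnat lay just inside the limit at -0.73 (-0.99 to -0.47), with 389 and 177 reads. In wild-type ESC the mesenchyme markers Lum and Twist2 had 0 reads. The 10 mesenchyme markers past the expression limit had a median of -0.72 in ESC, with 5 called lower, beside 2.74% of all tested genes. Their part in the values of Dcn was not tested.

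In RA-DIFF 10 imprinted genes were called higher in the library labelled Htt-null, where 11.0% of all tested genes were, and 0 were called lower, where 7.46% of all were. The median over the 34 genes was 0.18 against -0.01 over all tested genes, with 23 above 0 and 11 below it. Of the 10 genes, 6 are paternally expressed (Mest, Peg13, Slc38a4, Peg3, Nnat and Impact), 3 maternally expressed (Dcn, Zim1 and Atp10a), and the last is Ddc. The medians were 0.36 for 19 paternally expressed, 0.13 for 11 maternally expressed and -0.06 for the genes of varying allele.

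Mest had the largest ratio. It had 238.3 CPM (235.4 to 241.2) in the wild-type-labelled RA-DIFF library and 2531 CPM (2522 to 2541) in that labelled Htt-null, a log2 ratio of 3.46 (3.45 to 3.48), against 77.5 and 92.7 CPM and a log2 ratio of 0.20 in ESC. Peg13 had 3.69 and 35.9 CPM, a log2 ratio of 3.34 (3.19 to 3.49). By the labels it was the only gene of the 10 called in the same direction in ESC, and with the RA-DIFF labels exchanged it would be called in opposite directions and Dcn in the same. Dcn had 18.4 and 106.3 CPM, a log2 ratio of 2.58 (2.52 to 2.65), and Ddc 2.20 and 9.76 CPM, a log2 ratio of 2.21 (2.00 to 2.41). The 4 genes were all at least 4.61-fold higher in the library labelled Htt-null.

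Slc38a4 had 23.1 and 73.7 CPM in RA-DIFF, a log2 ratio of 1.73 (1.66 to 1.79), with both values below the 291.4 and 255.3 CPM of ESC. Peg3 had 397 and 1200.2 CPM, a log2 ratio of 1.65 (1.63 to 1.67), and its neighbour Zim1 5.09 and 12.1 CPM, a log2 ratio of 1.31 (1.16 to 1.45). Nnat had 355 and 794.5 CPM, a log2 ratio of 1.22 (1.20 to 1.23). Atp10a had 9.66 and 21.0 CPM, a log2 ratio of 1.18 (1.07 to 1.28), and Impact 85.1 and 146.9 CPM, a log2 ratio of 0.84 (0.80 to 0.88). In ESC the genotype ratios were -0.25 for Slc38a4, -0.38 for Peg3, 0.22 for Zim1, 0.26 for Atp10a and -0.19 for Impact, all within the limit. In Slc38a4, Ddc, Atp10a and Impact the library labelled wild type was the lowest of all 4 libraries.

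Of the genes called in ESC alone, Asb4 had 0.33 and Magel2 0.17 in RA-DIFF. Sgce lay just under the limit at 0.74, and Peg10 at 0.66 and Plagl1 at 0.57 were also above 0. The lowest ratios were those of Grb10 (-0.61), Mkrn3 (-0.58), Snrpn (-0.52) and Zdbf2 (-0.42), all within the limit. Below the expression limit, Airn had a ratio of 1.17 and Rasgrf1 of -1.75, with 187 reads in the library labelled wild type and 49 in that labelled Htt-null. In all, 21 of the 34 tested genes were called by genotype at neither stage.

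**Figure D3:**
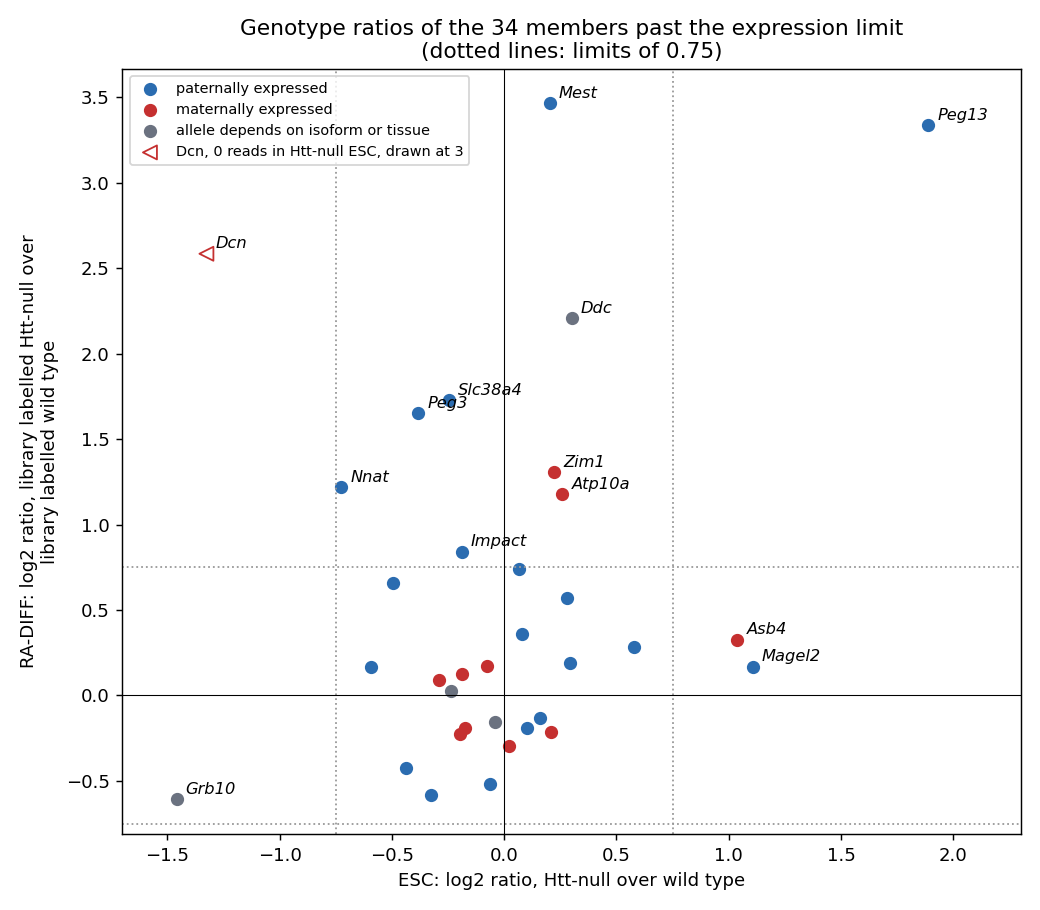
Genotype log2 ratio, Htt-null to wild type, in ESC (horizontal) and by label in RA-DIFF (vertical) for the 34 imprinted genes past the expression limit, coloured by expressed allele, with dotted lines at the limits of 0.75. Dcn is drawn at its bound of -1.33 in ESC. Mest at 3.46 and Peg13 at 3.34 lie at the top, and 0 genes lie below -0.75 in RA-DIFF.

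The mesenchyme and neuron markers also differed between the RA-DIFF libraries, in opposite directions. Of the 10 mesenchyme markers past the expression limit all 10 were higher in the Htt-null-labelled RA-DIFF library, 9 by the call, with a median log2 ratio of 1.71. Of the 10 neuron markers 9 were lower and 8 were called lower, with a median of -1.25, and of the 8 pluripotency markers 6 were called lower, with a median of -2.44. Of the 6 neural progenitor markers 4 were lower, 3 by the call (Pax6, Sox1 and Hes5), and 0 were called higher, with a median of -0.72. The 6 endothelium markers summed to 208, 240.3, 24.3 and 86.4 CPM, and the 7 endoderm markers to 10.3, 9.12, 6.28 and 16.6 CPM. In the former, Pecam1 had 177.7, 217.8, 3.38 and 1.27 CPM, while Kdr had 0.90, 1.78, 18.2 and 69.95 CPM. In the latter, Foxa2 had 12.0 CPM in the Htt-null-labelled RA-DIFF library. With differentiation 1 of 4 tested genes was higher and 3 were lower in each of these lists, in both pairs. No marker list other than mesenchyme and endothelium had a gene at 0 in any library, and Emcn was at 0 in both ESC libraries. The part of these cell types in the ratios of Mest, Dcn, Peg3 and the other genes was not tested.

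Partner genes of 1 domain were then compared within each library, as reads of the paternally expressed gene per read of its partner, a quantity that no scaling between libraries alters. Mest had 0.289 and 0.380 reads per read of Copg2 in wild-type and Htt-null ESC, and 1.72 and 22.2 in the RA-DIFF libraries labelled wild type and Htt-null. Copg2 itself had genotype log2 ratios of -0.20 (ESC) and -0.23 (RA-DIFF), so the genotype ratio of Mest exceeded it by 3.69 in RA-DIFF. The genes end tail to tail on opposite strands, and 23.1% of the exonic bases of Mest and 17.8% of those of Copg2 lie under exons of the other strand.

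Peg13 had 0.00954, 0.0399, 0.0524 and 0.605 reads per read of Trappc9, whose intron holds it. Trappc9 had genotype log2 ratios of -0.18 and -0.19, so that Peg13 exceeded it by 2.07 in ESC and 3.53 in RA-DIFF. Airn had 0.000423, 0.000764, 0.0212 and 0.0423 reads per read of Igf2r. In Mest and Peg13 the read ratio was lowest in wild-type ESC and highest in the Htt-null-labelled RA-DIFF library. For Airn it was also highest there, but 7 and 9 reads in ESC were too few to order the ESC lines.

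Peg10 and Sgce, which start side by side, kept a similar ratio, with 17.1, 11.6, 14.7 and 13.9 reads of Peg10 per read of Sgce. Peg3 and Zim1 had 136.3, 89.6, 78.0 and 99.0. Peg3 and Usp29, which also start side by side, had 11.9, 6.12, 12.2 and 31.5, a genotype difference of 1.36 on the log2 scale in RA-DIFF. Nnat lies in an intron of Blcap, a gene that was not among the 37, and had 0.191, 0.134, 3.10 and 13.3 reads per read of it. Blcap was called lower in the Htt-null-labelled RA-DIFF library at -0.88 where Nnat was called higher. The ratio of Grb10 to its neighbour Ddc was 6.87, 2.03, 137.7 and 19.6.

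Mcts2 per read of H13 had 0.724, 0.875, 0.401 and 0.563, and Zrsr1 per read of Commd1 had 0.715, 0.656, 0.361 and 0.538. Both ratios were lowest in the wild-type-labelled RA-DIFF library. Nespas per read of Gnas had 0.0876, 0.0683, 0.00972 and 0.0107, and 34.6% of the exonic bases of Nespas lie under Gnas exons of the opposite strand. The libraries were made strand-specific with dUTP, and the study's methods leave the strand option of the counting unnamed, at its default. Which strand was counted could not be settled from the counts. If strand was not used, reads of Nespas and Gnas and at the shared ends of Mest and Copg2 cannot be told apart. The exons of Airn and Igf2r do not overlap, but unspliced Igf2r reads on Airn exons could not be told apart either. Exons of other genes on the same strand cover 27.3% of the exonic bases of Snrpn.

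**Figure D4:**
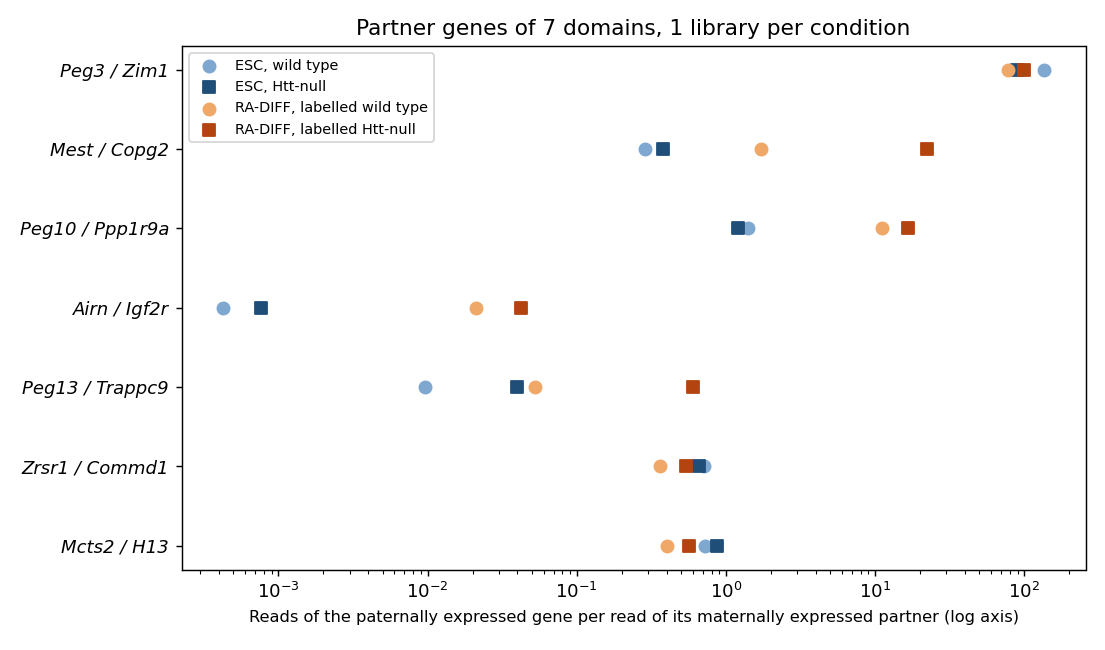
Reads of the paternally expressed gene per read of its maternally expressed partner in 7 pairs, on a log axis, with 1 point for each of the 4 RNA-seq libraries. Mest per Copg2 runs from 0.289 to 22.2 and Peg13 per Trappc9 from 0.00954 to 0.605, while Peg3 per Zim1 stays between 78.0 and 136.3.

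Introns of imprinted genes also hold miRNAs, short RNAs that pair with messenger RNAs chiefly through the seed, bases 2 to 8, which is in capitals here. The mature sequences below, from RefSeq on GRCm38.p6, are those that RefSeq entries used here place inside the 37 genes and that the small RNA table lists, and these 4 have different seeds. The families miR-297, miR-466, miR-467 and miR-669 of the Sfmbt2 intron were not analysed here. miR-335-5p lies at chr6:30741314-30741336 and miR-335-3p at chr6:30741354-30741375, both on the plus strand within Mest, and are the 2 arms of 1 hairpin. miR-3099-3p lies at chr7:6803638-6803659 on the plus strand within Usp29 and miR-489-3p at chr6:3721922-3721944 on the minus strand within Calcr.
miR-335-5p: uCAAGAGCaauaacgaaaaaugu
miR-335-3p: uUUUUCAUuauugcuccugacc
miR-3099-3p: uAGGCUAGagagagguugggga
miR-489-3p: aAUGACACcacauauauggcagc
The small RNA libraries held 12888905, 11976744, 25656673 and 24290346 counts. They hold no Htt counts, so their genotype labels were not checked, and whether a label names the same cells in both assays was not tested.

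The arms of miR-335 differed from each other in how they compared with the Mest messenger RNA. miR-335-5p had 1636, 1578, 11062 and 6505 reads, or 126.9, 131.8, 431.2 and 267.8 CPM, and miR-335-3p had 29390, 35214, 29496 and 8100 reads, or 2280, 2940, 1150 and 333.5 CPM. With differentiation the 5p arm was higher in both pairs, as Mest was, with log2 ratios of 2.93 and 2.90 (1.76 and 1.02 by library size). The 3p arm had 0.18 and -1.26 (-0.99 and -3.14 by library size), so that its sign in the libraries labelled wild type depended on the scaling. In RA-DIFF the log2 ratio of the library labelled Htt-null over that labelled wild type was -0.21 (-0.25 to -0.16) for the 5p arm and -1.30 (-1.34 to -1.27) for the 3p arm, where Mest had 3.46. Scaling by library size alone gave -0.69 and -1.79, both again below 0. In ESC the ratios were -0.18 and 0.14, and by library size 0.05 and 0.37.

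The balance of the arms, which no scaling between libraries alters, moved with differentiation. There were 18.0 and 22.3 reads of the 3p arm per read of the 5p arm in wild-type and Htt-null ESC, and 2.67 and 1.25 in the RA-DIFF libraries labelled wild type and Htt-null. Among 75 hairpins with at least 100 reads of each arm in every library, the log2 change of this ratio in miR-335 was -2.75 in the libraries labelled wild type, place 7 by size, and -4.16 in those labelled Htt-null, place 2. The median size of the change over the 75 hairpins was 0.93 and 1.13. Between the RA-DIFF libraries the change was -1.10, place 4 of 75, against a median size of 0.32.

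miR-3099-3p had 7, 17, 252 and 216 reads, log2 ratios of RA-DIFF over ESC of 5.34 and 4.52 (4.18 and 2.65 by library size), while its host Usp29 had 2.31 and 2.01. miR-489-3p had 8, 18, 21 and 7 reads, too few to order the conditions.

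**Figure D5:**
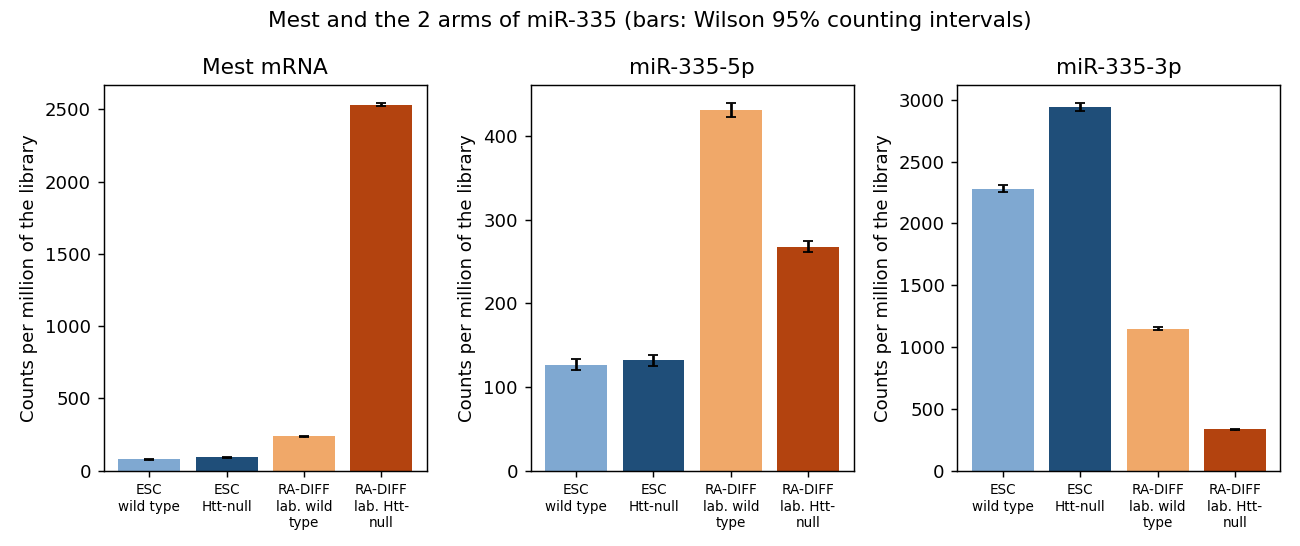
Level, in CPM, of the Mest messenger RNA and of the 5p and 3p arms of miR-335, with bars for the 4 conditions and error bars for 95% Wilson counting intervals. Mest is highest in the Htt-null-labelled RA-DIFF library of the RNA-seq, at 2531 CPM, and miR-335-3p is lowest in the separate small RNA library of that label, at 333.5 CPM.

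Factors that keep imprints, such as Zfp57, its partner Trim28 and the DNA methyltransferases, were compared as a list of 16, of which 15 passed the expression limit. In ESC 0 were called by genotype, where 4.06% of all tested genes were called higher and 2.74% lower. All 15 lay below 0, with a median of -0.17 against -0.04 over all genes. Dppa3, which guards imprints in the early embryo, was the 1 under the limit, with 91, 551, 72 and 8 reads, genotype log2 ratios of 3.01 in ESC and -2.98 by label in RA-DIFF. In RA-DIFF 1 was called lower in the library labelled Htt-null, where 7.46% of all tested genes were, and 0 higher, where 11.0% were. The gene called was Dnmt3l, a cofactor of new methylation, at -2.68. The median of the list was -0.10 against -0.01 over all genes. With differentiation 6 were called lower and 0 higher in each pair, where 24.9% and 23.5% of all genes were lower and 32.5% and 32.9% higher. Zfp57 had 340.4, 350.5, 116.4 and 80.9 CPM, log2 ratios of -1.59 and -2.04, and Trim28 had -0.93 and -1.19. Dnmt3b had -2.98 and -2.96 and Tet1, which oxidizes methylated cytosine, -3.43 and -3.55.

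Of 35 genes that neighbour the domains, 29 were in the table and 13 passed the expression limit. In RA-DIFF 3 were called higher in the library labelled Htt-null, Cobl beside Grb10 and Ddc (1.77), Phactr2 beside Plagl1 (0.98) and Pon2 in the Peg10 domain (0.82), and Blcap was the 1 called lower. Of all tested genes 11.0% were called higher and 7.46% lower there. Lum, next to Dcn and also a mesenchyme marker, had 0, 1, 1404 and 5077 reads, a log2 ratio of 2.04 in RA-DIFF beside 2.58 for Dcn, and was under the expression limit. With differentiation 7 of the 13 neighbours were called higher in each pair, beside 32.5% and 32.9% of all genes, and 3 and 2 were called lower (Cobl and Adam23 in both pairs, Ago2 in the libraries labelled wild type), beside 24.9% and 23.5%.

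The other imprinted regions are given for comparison. The 6 genes of the Dlk1-Dio3 domain had median genotype log2 ratios of 0.78 (ESC) and 0.10 (RA-DIFF), and the 8 tested genes of distal chromosome 7 had -0.11 and 0.16. Among the latter H19 had 4.08 and Igf2, the growth factor that Igf2r clears, 1.48 in RA-DIFF, and Cdkn1c, an inhibitor of the cell cycle, was called lower at -1.35. The medians of the 34 genes described here, -0.05 and 0.18, lay below that of the Dlk1-Dio3 genes in ESC and close to that of distal chromosome 7 in RA-DIFF. These differences between lists were not tested.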

How the data were processed

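The authors aligned 50 bp reads to GRCm38.p4 with TopHat 2.0.14 and counted them per gene with HTSeq 0.6.1 in the intersection-nonempty mode. The libraries were strand-specific (dUTP), and the methods leave options they do not name, such as strand, at the default. For small RNA the authors trimmed reads with cutadapt 1.3, mapped them to mature miRNAs with BWA 0.7.5a-r418 and kept unique hits. Both deposited tables hold raw counts per feature and library. Samples were grouped by their labels, and 0 columns of per-sample values were left unused.

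From the counts, TMM factors were computed with edgeR 4.0.16 in R 4.3.3 over the 4 libraries of an assay, and all further values in Python 3.11.15 (pandas 2.3.3, numpy 2.4.6, scipy 1.17.1; plots with matplotlib 3.10.9). Ratios carry exact (Clopper-Pearson) and CPM values Wilson intervals at the 95% level, which cover counting error only. The expression limit used a prior count of 2. Exonic lengths and overlaps come from GENCODE vM21, in which 32304 genes of the table were found. Within a stage, 1 library per condition leaves no residual degrees of freedom for the quasi-likelihood test, and an additive fit of genotype and stage, with stages in place of replicates, was not run. The exact test with an assumed dispersion of 0.01 or 0.1, other scalings, limits and prior counts, and exchanged RA-DIFF labels were tried as alternatives, and the counting of calls was tested on simulated data. The genotype and differentiation comparisons share libraries and are not independent. All 37 genes are named, with full values for those called by genotype. The genes and all lists were chosen with earlier results of these data known. The ESC genotype result of 1 neighbouring gene is not reported here.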

Additional observations from a re-analysis of the deposited data

Results flagged for a closer look

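Dcn was called in opposite directions by genotype at the 2 stages. The genotype log2 ratio, Htt-null to wild type, was -1.33 in ESC, a bound that sets the 0 reads of the Htt-null library to 3, and 2.58 by label in RA-DIFF. The ESC value rests on 10 reads in wild-type cells, its interval reaches -0.75, the limit itself, and Dcn passed the expression limit through its RA-DIFF libraries alone. It is given as a value, and the difference between the stages was not tested. With the RA-DIFF labels exchanged both values would be below 0.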

How the results depend on the processing

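No paired analysis was run. Within a stage each genotype has 1 library, so no replicate could be left out. A fit of genotype with stage as the block, which takes stages as replicates, was not run. The count test at an assumed dispersion of 0.01 called the same 5 and 10 imprinted genes by genotype in ESC and RA-DIFF. Scaling by library size dropped Mkrn3, H13 and Trappc9 from the 19 genes higher with differentiation in the libraries labelled Htt-null, and medians of ratios dropped Grb10 and Trappc9 in those labelled wild type and added Nnat as lower in ESC and Sgce as higher in RA-DIFF. At a dispersion of 0.1 the test called 1 gene higher (Peg13) and still Grb10 and Dcn lower in ESC, 6 higher in RA-DIFF (Mest, Peg13, Peg3, Slc38a4, Dcn and Ddc) and 3 lower with differentiation in each pair. Of all genes it then called 96 higher and 62 lower in ESC (586 and 395 as reported), 694 and 378 in RA-DIFF (1585 and 1076), 3128 and 2227 with differentiation in the libraries labelled wild type (4681 and 3590) and 3185 and 2020 in those labelled Htt-null (4745 and 3387). A limit of 1 left 5 genes lower in RA-DIFF in the libraries labelled wild type (2919 of all genes), and by genotype over all genes 319 higher with 186 lower (ESC) and 1119 with 675 (RA-DIFF), and in RA-DIFF 9 imprinted genes were higher, without Impact. Without the expression limit 4 genes were higher in ESC (Airn added), 12 were higher by genotype in RA-DIFF (Airn and Calcr added) and 1, Rasgrf1, was lower there, the median with differentiation in the libraries labelled wild type was 1.03, and of all genes 5856 and 4270 passed in ESC, 5962 and 6602 in RA-DIFF by genotype, 11764 and 9960, and 11133 and 10381 with differentiation. An expression limit on the edgeR average log2 CPM, chosen after seeing the data, admitted Airn, gave the same median of 1.03, and called 844 and 584 of all genes in ESC.

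Exchanging the RA-DIFF labels turned the 10 genes called higher in RA-DIFF into 10 lower and 0 higher, with a median of -0.18, and gave Mest -3.46, Peg13 -3.34, Dcn -2.58, Ddc -2.21, Slc38a4 -1.73, Peg3 -1.65, Zim1 -1.31, Nnat -1.22, Atp10a -1.18 and Impact -0.84. The medians with differentiation became 0.53 in wild-type and 1.23 in Htt-null cells, with 16 genes higher and 7 lower in the former (4757 and 3455 of all 14417 tested genes) and 19 higher and 8 lower in the latter (4625 and 3485 of all). The exchange gave miR-335-5p 0.21 and miR-335-3p 1.30. Over the 760 miRNAs with a mean of at least 10 reads, scaling by library size moved the median from -0.03 to 0.20 in ESC and from -0.02 to -0.51 in RA-DIFF. With it mmu-miR-335-5p became 0.054 in ESC and -0.69 in RA-DIFF, and miR-335-3p 0.37 and -1.79. Low counts limit Airn, Calcr, Rasgrf1 and, in ESC, Asb4, Magel2, Peg13, Zim1 and Dcn.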
